A study of Mus musculus with 32 samples.

Results

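Mouse 2-cell embryos cultured with cycloheximide were compared directly with 2-cell embryos cultured with MG132, over all gene and repeat rows of the deposited count tables. The members are the 2 libraries labelled cycloheximide (CHX) and the 2 labelled MG132 at this stage, 4 of the 32 samples of the series. All came from wild-type embryos of females aged 6 to 8 weeks, whose titles mark them as made by in vitro fertilisation, cultured in KSOM medium with the drug. The vehicle group beside them (DMSO, 2 libraries) had the same genotype and female age. The fit also held 2 libraries of embryos treated with aphidicolin, which blocks DNA replication, and 2 of untreated embryos from females of 12 months. The dose, the start and the length of exposure, and the number of embryos per library were not stated in the labels. No label names separate cultures either, so a p-value here reflects only how these samples vary, which may be technical variation.

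Cycloheximide binds the ribosome and blocks the elongation step of translation. MG132 is a peptide aldehyde that blocks the proteasome, the protease complex that degrades ubiquitinated proteins. The mouse embryo starts with RNA and protein stored in the oocyte. Much of this RNA is degraded around fertilisation and the first division, while transcription from the embryonic genome starts in a minor wave in the zygote and a major wave in the 2-cell embryo. The comparison sets embryos cultured with a blocker of protein synthesis beside embryos cultured with a blocker of protein degradation.

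Library totals were 28300402 and 29521531 counts with cycloheximide, 14505195 and 29053292 with MG132, and 28566215 and 27332143 with DMSO, so MG132 replicate 1 was the shallowest of these 6. Repeats took 8.81% and 12.7% of counts with cycloheximide, 10.45% and 16.2% with MG132, and 19.9% and 20.8% with DMSO. The summed level of the 15 genes that mark the 2-cell embryo was 78.8 and 122 CPM (counts per 1000000, with library sizes scaled by TMM) with cycloheximide, 204 and 237 CPM with MG132, and 1290 and 1564 CPM with DMSO, so both drug groups were far below the vehicle in the markers of their labelled stage. Markers of granulosa and cumulus cells summed to between 15.1 and 34.2 CPM in the 4 drug libraries, those of blood to between 3.16 and 7.24 CPM, and those of fibroblasts and oviduct to between 2.96 and 39.3 CPM, with the highest value in CHX replicate 1. Of the 20 granulosa and cumulus markers, 6 were at 0 in all 4 drug libraries, Foxl2, Amh and Inha among them. Sperm markers summed to 289 and 231 CPM with cycloheximide against 81.3 and 61.7 with MG132, most of it from Odf2, which also encodes a centrosome protein (252 and 202 CPM against 59.8 and 43.9 CPM). Among the markers of these other cells, Gja1, Col1a1 and Odf2 were called higher with cycloheximide and Odf1 lower. Odf2 kept its call with any 1 of the 4 drug libraries left out, Gja1 lost it without CHX replicate 1 or MG132 replicate 2, Col1a1 lost it without either of these, without MG132 replicate 1 or with the replicate number as a block in the fit (adjusted p = 0.0682), and Odf1 lost it without any 1 of the 4 or with the block (0.0549). The part of other cells in the results was not tested.

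Of 22391 genes tested, 916 were higher and 1212 lower with cycloheximide than with MG132 at an adjusted p under 0.05, which is 9.5% of genes (4.09% higher and 5.41% lower). Among the 7623 genes at 10 CPM or more in the higher drug group, 882 were higher and 910 lower, larger shares than over all genes. Counts of called list members below are to be read beside both. The median log2 difference over all genes was -0.01. Called genes had a median log2 difference of 1.74 in the higher direction and -2.19 in the lower direction, and 49 and 289 of them differed at least 8-fold. All 2128 called genes had CHX and MG132 libraries that did not overlap between the groups, as had 49.5% of all genes tested. Against the same DMSO libraries, 5367 genes (24%) were called with cycloheximide and 2188 (9.77%) with MG132. These counts share the vehicle, and DMSO values are given below only side by side.

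The number of genes called rested most on MG132 replicate 2. Without it 68 genes were higher and 287 lower, 348 of the 355 being among those called with all libraries. The counts were 461 and 917 without MG132 replicate 1, 571 and 1016 without CHX replicate 2, and 879 and 933 without CHX replicate 1. Below, the 4 libraries are called CHX 1, CHX 2, MG132 1 and MG132 2 where 1 of them was left out, and an adjusted p is then given for genes that lost their call. A fit of only the 4 libraries compared called 0 of 16874 genes (lowest adjusted p = 0.0555, edgeR), with 4267 genes (25.3%) at an unadjusted p under 0.05, while the DESeq2 Wald test on the 10 libraries called 1724 and 1834. Thinning every 2-cell library to the smallest total left 949 and 1283.

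**Figure D1:**
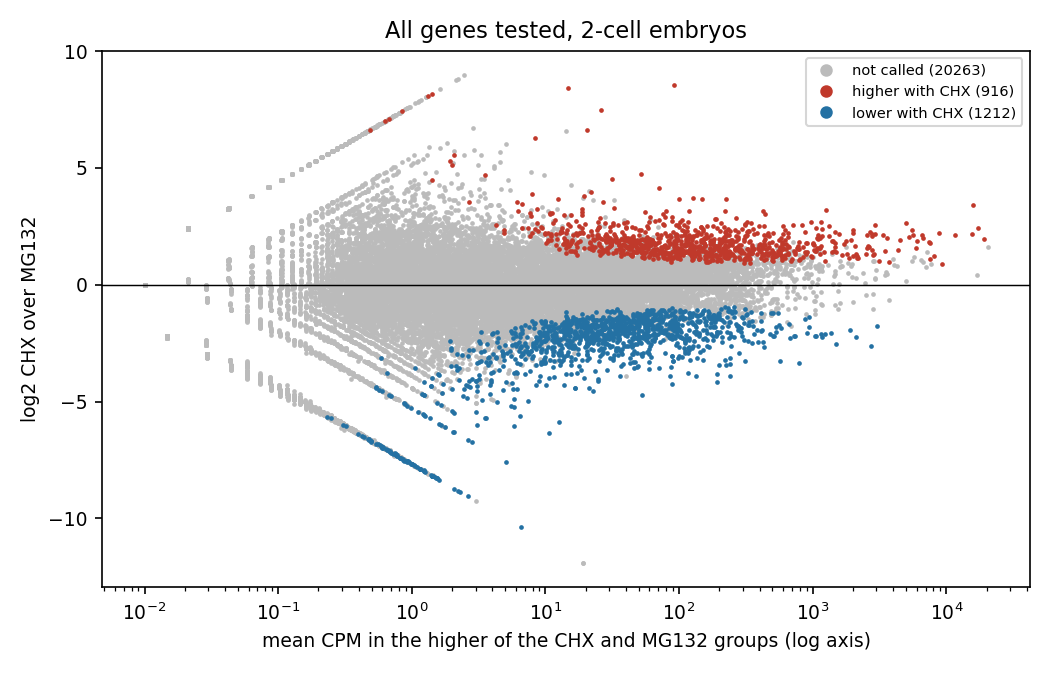
Each point is a gene tested in 2-cell embryos. The x axis is the mean normalised CPM in the higher of the CHX and MG132 groups (log axis, values under 0.01 drawn at 0.01) and the y axis is the log2 ratio of CHX over MG132; red marks the 916 genes called higher with CHX, blue the 1212 called lower, grey the rest. Called genes lower with CHX reach lower levels than those called higher, and the diagonal lines of points at the left are genes with few counts.

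Of the 12 genes with the largest increases under cycloheximide over MG132, at 10 CPM or more in the higher group, Ubtfl1 and Npl were close to 0 with MG132. H1foo, also among them, which encodes the oocyte form of linker histone H1 (chr6:115944938-115950236, GRCm38, plus strand), stood at 13621 and 18153 CPM with cycloheximide, 2362 and 596 CPM with MG132 and 369.6 and 393 CPM with DMSO. Both cycloheximide libraries were above both MG132 libraries, which were above the vehicle. The log2 difference between the drugs was 3.43 (SE 0.67, adjusted p = 0.0105). Zswim3, a zinc finger gene named here as a member of the maternal set (chr2:164805098-164822130), was at 306 and 549.9 CPM with cycloheximide, 71.7 and 23.0 CPM with MG132 and 12.8 and 7.35 CPM with DMSO, and its log2 difference was 3.18 (SE 0.52, adjusted p = 0.00569). Tor2a, a torsin family ATPase gene (chr2:32757234-32762244), was at 22.7 and 30.8 CPM with cycloheximide, 2.55 and 2.11 CPM with MG132 and 4.64 and 2.83 CPM with DMSO, so both MG132 libraries were below the vehicle and both cycloheximide libraries above it, and the log2 difference between the drugs was 3.52 (SE 0.53, adjusted p = 0.00404).

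Ubtfl1, a gene of preimplantation embryos related to a ribosomal RNA transcription factor (chr9:18404418-18413177), had 693 counts with cycloheximide and 2 with MG132. This is a ratio of 376, with an exact 95% counting interval of 104 to 3114. The interval pools the counts of each group and leaves out variation between libraries, so it is too narrow. Its level was 8.26 and 20.999 CPM with cycloheximide and 103 and 67.1 CPM with DMSO, so only the MG132 libraries were close to 0. Npl, an enzyme gene of sialic acid breakdown, stood at 5.45 and 46.9 CPM against 0 and 0.235 CPM, with a wide gap between the cycloheximide libraries (log2 difference 7.49, SE 1.49, adjusted p = 0.0114). The fitted log2 differences of Ubtfl1 (8.41) and Npl rest on MG132 levels near 0. They were 11.51 and 12.36 without MG132 2. P4hb, the protein disulfide isomerase of the endoplasmic reticulum, was at 85.2 and 211 CPM against 13.1 and 9.89 CPM, a log2 difference of 3.69 (SE 0.71, adjusted p = 0.0101). Hamp, the hormone gene of iron balance, was at 16.3 and 22.4 CPM against 1.80 and 0.998 CPM, a log2 difference of 3.81 (SE 0.63, adjusted p = 0.00565). Of the other genes that the rule places among the 12 largest increases, Fgl1, Rn7s1, Rn7s2, Col4a1, Por and Clstn1 had log2 differences from 3.26 to 4.53.

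Ubtfl1, Tor2a and Zswim3 stayed called when any single library was left out. Calls that ended with 1 library left out were H1foo (adjusted p = 0.0603 without CHX 2, 0.0644 without MG132 2), Npl (0.0594 without MG132 1, 0.0670 without MG132 2), P4hb (0.104 without MG132 2), Hamp (0.0754 without MG132 2), Fgl1 (0.0651 without CHX 1, 0.188 without CHX 2, 0.130 without MG132 1), Rn7s1 (0.0664 without CHX 2, 0.0972 without MG132 1, 0.0950 without MG132 2), Rn7s2 (0.0997 without CHX 2, 0.116 without MG132 1, 0.213 without MG132 2), Col4a1 (0.0768 without CHX 1, 0.0929 without MG132 1, 0.121 without MG132 2), Por (0.109 without CHX 2, 0.217 without MG132 2) and Clstn1 (0.0651 without CHX 2, 0.126 without MG132 1, 0.108 without MG132 2).

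The largest decreases with cycloheximide, by the same rule, were those of Pdcl3, Vaultrc5, Tmem147, Ston1, Stx5a, Chchd2, Smim20, Zfp839, Ndufaf8, Tmem29 and the histone genes Hist2h2aa1 and Hist2h2aa2. Pdcl3, a phosducin-like cofactor of chaperonin folding (chr1:38985608-38997238, plus strand), was at 1.96 and 2.06 CPM with cycloheximide, 47.3 and 58.1 CPM with MG132 and 12.0 and 23.6 CPM with DMSO. The libraries of the 3 groups did not overlap, and the drugs differed 26.2-fold, a log2 difference of -4.71 (SE 0.44, adjusted p = 0.00196). Tmem147, a membrane protein gene of the endoplasmic reticulum (chr7:30727701-30729540), was at 0.511 and 1.47 CPM against 14.7 and 27.4 CPM, a log2 difference of -4.40 (SE 0.57, adjusted p = 0.00249). Stx5a, the syntaxin of traffic between the endoplasmic reticulum and the Golgi (chr19:8741413-8756069), was at 4.43 and 5.05 CPM with cycloheximide, 54.9 and 123 CPM with MG132 and 41.3 and 56.1 CPM with DMSO. Its log2 difference between the drugs was -4.23 (SE 0.43, adjusted p = 0.00222).

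Chchd2, which encodes a mitochondrial protein of the intermembrane space (chr5:129881156-129887470), was at 9.20 and 12.3 CPM with cycloheximide, 114 and 273 CPM with MG132 and 76.6 and 82.0 CPM with DMSO, a log2 difference of -4.17 (SE 0.44, adjusted p = 0.00226) between the drugs. Crabp2, a carrier of retinoic acid (chr3:87948666-87953376), is named for its differences from the other systems, and was at 20.6 and 12.2 CPM with cycloheximide, 13.8 and 34.7 CPM with DMSO and 257 and 228 CPM with MG132. Its cycloheximide libraries were near the vehicle. The log2 difference between the drugs was -3.88 (SE 0.52, adjusted p = 0.00260). Ston1, Smim20, Zfp839, Ndufaf8, Tmem29 and the small vault RNA gene Vaultrc5 also differed, with log2 differences from -4.54 to -3.92. Pdcl3, Tmem147, Stx5a, Chchd2, Crabp2, Ston1, Zfp839, Ndufaf8, Tmem29 and Vaultrc5 kept their call when any single library was left out, and the call was lost for Smim20 (adjusted p = 0.0573 without MG132 2). Chchd2 and several others have close copies in the genome, whose reads the authors' counting may have split, so their levels are uncertain.

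**Figure D2:**
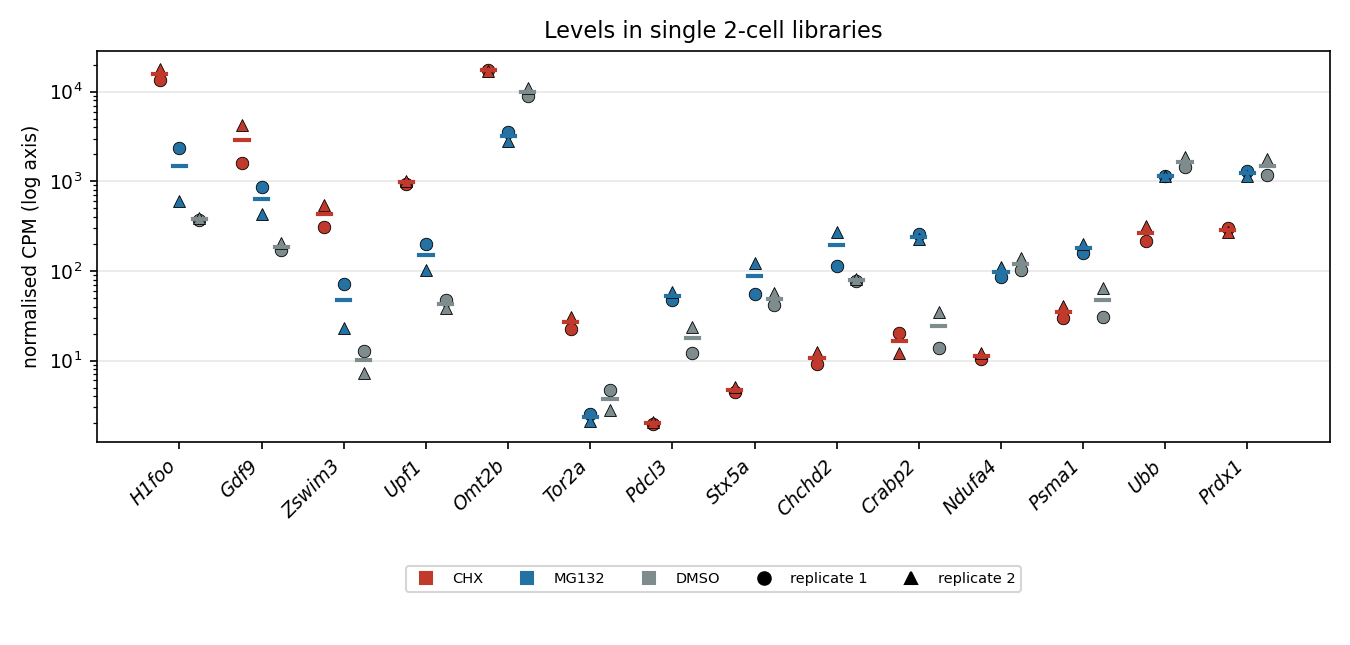
Levels of 14 genes in single 2-cell libraries, in normalised CPM on a log axis; circles are replicate 1, triangles replicate 2 and short lines the mean of the 2 libraries, for CHX (red), MG132 (blue) and DMSO (grey). Red lies above blue in the first 6 genes and below it in the other 8, while the place of the vehicle differs from gene to gene.

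RNA of the mitochondrial genome and RNA of the nuclear genes for the same respiratory chain mostly differed in opposite directions where they were called. The mitochondrial genome encodes a few core subunits of the chain and the ribosomal RNAs of the organelle, and most subunits are encoded in the nucleus and imported. Of 15 mitochondrial genome transcripts on the list, 13 were higher and 0 lower with cycloheximide (median log2 difference 1.89, range 1.60 to 2.61). Of 76 nuclear genes of oxidative phosphorylation, 2 were higher and 20 lower (median -1.03, against -0.01 over all genes). Mitochondrial transcripts took 5.93% and 3.54% of gene counts with cycloheximide, 1.64% and 1.95% with MG132 and 4.13% and 3.18% with DMSO, so both MG132 libraries were the lowest of the 6.

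Among the mitochondrial transcripts, mt-Cytb, the cytochrome b of complex III, was at 19706 and 11519 CPM with cycloheximide, 3615 and 3343 CPM with MG132 and 8062 and 8741 CPM with DMSO, a log2 difference between the drugs of 2.17 (SE 0.36, adjusted p = 0.00597). mt-Nd5 and mt-Nd4, subunits of complex I, had log2 differences of 2.13 (SE 0.38, adjusted p = 0.00754) and 2.02 (SE 0.36, adjusted p = 0.00729). The cytochrome oxidase transcript mt-Co3 and the small ribosomal RNA mt-Rnr1 did not pass (log2 differences 2.03 and 1.60, adjusted p = 0.0735 and 0.0557). With CHX 1, CHX 2, MG132 1 or MG132 2 left out, 7 and 0, 13 and 0, 3 and 0, and 3 and 0 of the 15 were called higher and lower, and the call was lost for mt-Cytb (adjusted p = 0.0529 without MG132 2). Transcripts of 1 polycistronic genome share their source and are not independent of each other.

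Among the nuclear genes, Ndufa4, a subunit of complex IV (chr6:11900292-11907497, minus strand), was at 10.3 and 12.3 CPM with cycloheximide, 85.2 and 111 CPM with MG132 and 103 and 139 CPM with DMSO. The MG132 libraries overlapped the vehicle and the cycloheximide libraries were 8.66-fold lower than MG132, a log2 difference of -3.11 (SE 0.33, adjusted p = 0.00228). The ATP synthase genes Atp5c1 and Atp5e had log2 differences of -2.95 (SE 0.35, adjusted p = 0.00249) and -2.98 (SE 0.45, adjusted p = 0.00411). Sdhd, a membrane anchor of complex II, showed another order, with 61.4 and 115 CPM with MG132 above both cycloheximide (12.7 and 8.50 CPM) and DMSO (6.10 and 18.7 CPM), and a log2 difference of -3.06 (SE 0.56, adjusted p = 0.00842). Ndufa13 and Ndufa10 were the 2 subunits called higher with cycloheximide (log2 differences 1.93 and 1.52). The list's summed level was 1929 and 3292 CPM with cycloheximide and 2693 and 3478 with MG132, so the summed levels overlapped while single subunits differed. With the same libraries left out in turn, 4 and 12, 1 and 19, 1 and 20, and 0 and 5 were called higher and lower, and the call was lost for Sdhd (adjusted p = 0.0558 without MG132 2), Ndufa13 (0.259 without CHX 2, 0.121 without MG132 1, 0.188 without MG132 2) and Ndufa10 (0.0941 without MG132 2).

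Of 73 oocyte and maternal-effect genes tested, 18 were higher and 3 lower with cycloheximide (median log2 difference 0.20). The shorter list of oocyte markers summed to 19944 and 29251 CPM with cycloheximide, 8908 and 8097 with MG132 and 3167 and 3627 with DMSO. Most of the cycloheximide sums came from H1foo, whose levels are given above. The full list summed to 129189 and 149146 CPM with cycloheximide, 69668.5 and 66053.8 with MG132 and 71184.3 and 90274.5 with DMSO. In the full list both MG132 libraries were thus below the vehicle, unlike in the shorter list. Gdf9, the oocyte growth factor that acts on granulosa cells, was at 1599 and 4249.6 CPM with cycloheximide, 856 and 430.1 CPM with MG132 and 171 and 204 CPM with DMSO, a log2 difference of 2.19 (SE 0.45, adjusted p = 0.0132). Omt2b, an abundant oocyte transcript, was at 17666 and 16864 CPM with cycloheximide and 3528 and 2841 CPM with MG132, and the vehicle lay between at 8892 and 10955 CPM (log2 difference 2.44, SE 0.32, adjusted p = 0.00249). Mos, the kinase that holds the oocyte in meiotic arrest, was at 169 and 39.6 CPM against 13.3 and 17.5 CPM, with a wide gap between the cycloheximide libraries (log2 difference 2.76, SE 0.60, adjusted p = 0.0157). Trim28, a corepressor of retroviral elements, had a log2 difference of 2.53 (SE 0.61, adjusted p = 0.0238). Oog1 went the other way, at 264 and 256 CPM with cycloheximide against 1216 and 1778 CPM with MG132 (log2 difference -2.53, SE 0.37, adjusted p = 0.00387). Zp3 and Ccnb1 had log2 differences of -0.13 and 0.48 and adjusted p of 0.926 and 0.413. Leaving out CHX 1, CHX 2, MG132 1 or MG132 2 gave 14 and 3, 9 and 2, 11 and 6, and 2 and 1 members higher and lower, and the call was lost for Gdf9 (adjusted p = 0.0721 without CHX 2, 0.130 without MG132 2), Mos (0.138 without CHX 1, 0.0742 without MG132 1, 0.0893 without MG132 2) and Trim28 (0.150 without CHX 2, 0.192 without MG132 2). With the replicate number as a block, 19 were higher and 7 lower. In bulk embryos, fewer cells and less RNA per cell cannot be told apart.

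Maternal and zygotic genes were also defined in libraries outside the comparison, as genes at least 4-fold apart between MII oocytes and 2-cell embryos of 12-month females. Of 991 maternal genes tested, 104 (10.5%) were higher and 78 (7.87%) lower with cycloheximide than with MG132 (median log2 difference 0.15). Their median level was 14.6 CPM with cycloheximide and 15.7 CPM with MG132. Of the 7623 genes at 10 CPM or more, 882 were higher and 910 lower, both larger shares than in the maternal set. Of 1708 zygotic genes, 14 (0.82%) were higher and 143 (8.37%) lower (median -0.38), where all genes had 4.09% and 5.41%. The median level of these zygotic genes was 0.232 CPM with cycloheximide, 0.308 CPM with MG132 and 4.48 CPM with DMSO. Many were thus near the floor under both drugs, which limits the calls that could be made in either direction. Against DMSO the zygotic median was -3.51 with cycloheximide and -3.17 with MG132, and the maternal median was 1.38 and 1.23. Among zygotic genes, Lyrm1 was at 0.724 and 1.30 CPM with cycloheximide, 13.3 and 15.4 CPM with MG132 and 13.1 and 20.9 CPM with DMSO (log2 difference between the drugs -3.82, SE 0.45, adjusted p = 0.00249). Trim60 and Nans were higher with cycloheximide (log2 differences 1.30 and 1.73). Among maternal genes, C1qtnf12 was higher (49.0 and 112 CPM against 9.91 and 7.95 CPM, log2 difference 3.17, SE 0.61, adjusted p = 0.0104), and the splicing factor gene Sf3b5 was lower (1.70 and 1.22 CPM against 13.6 and 23.0 CPM, log2 difference -3.64, SE 0.48, adjusted p = 0.00249). Left without MG132 2, 7 maternal genes were higher and 25 lower, and 2 zygotic genes were higher and 32 lower. The higher counts also dropped without MG132 1, to 61 maternal and 3 zygotic genes, and to 54 maternal genes without CHX 2. With 1 library left out, Trim60 (adjusted p = 0.0679 without CHX 1, 0.0568 without CHX 2, 0.0522 without MG132 1, 0.276 without MG132 2), Nans (0.0616 without CHX 2, 0.102 without MG132 1, 0.247 without MG132 2) and C1qtnf12 (0.0896 without MG132 2) lost the call. Sets defined at 2-fold or 8-fold kept fewer zygotic genes higher than lower (47 and 277, 7 and 50).

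Of 55 genes transcribed briefly at the 2-cell stage, 3 were higher and 8 lower with cycloheximide than with MG132 (median log2 difference -0.47), while the medians against DMSO were -6.59 and -5.84. Of the 55, 25 were under 1 CPM in all 4 drug libraries, 5 of them with no count, so a call was hard to reach. The list's summed level did not follow its median, with 4513 and 6864 CPM with cycloheximide, 2407 and 2421 with MG132 and 6066 and 6419 with DMSO. Zscan4d, of a family of telomere and 2-cell regulators with near-identical copies, was at 3.15 and 4.97 CPM with cycloheximide, 10.7 and 20.5 CPM with MG132 and 215 and 424 CPM with DMSO (log2 difference between the drugs -1.94, SE 0.49, adjusted p = 0.0298). Pramef25 had 0 counts with cycloheximide and 0.463 and 1.29 CPM with MG132, so it was at least 13.8-fold lower with cycloheximide at 3 counts over the group, and it stood at 48.9 and 47.1 CPM with DMSO. Zfp352, a 2-cell zinc finger gene, was at 0.0426 and 0 CPM with cycloheximide, 0 and 0.704 CPM with MG132 and 251 and 233 CPM with DMSO (adjusted p between the drugs = 0.221). Duxf3 and Eif1a did not pass either (adjusted p = 0.380 and 0.879). Ubtfl1, AU022751 and Sp110 were the 3 members higher with cycloheximide. Leaving out CHX 1, CHX 2, MG132 1 or MG132 2 gave 4 and 3, 3 and 4, 3 and 8, and 2 and 0 members higher and lower. The call was lost for Zscan4d (adjusted p = 0.133 without CHX 1, 0.244 without MG132 2), Pramef25 (0.0732 without MG132 2) and Sp110 (0.226 without MG132 2), and Eif1a passed without CHX 1 (adjusted p = 0.0288).

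Proteasome genes, which encode the complex that MG132 blocks, were mostly lower with cycloheximide where they differed. Of 46 subunit and assembly genes, 3 were higher and 10 lower (median log2 difference -0.52), and the list's median against DMSO was 0.22 with cycloheximide and 0.92 with MG132. Psma1, a subunit of the outer ring of the core particle (chr7:114264606-114276118, minus strand), was at 29.5 and 40.9 CPM with cycloheximide, 159 and 199.7 CPM with MG132 and 30.6 and 65.2 CPM with DMSO. The cycloheximide libraries were near the vehicle and both MG132 libraries were above all of these (log2 difference between the drugs -2.35, SE 0.38, adjusted p = 0.00504). The core ring genes Psmb4 and Psmb7 were also lower with cycloheximide, at 6.56 and 5.34 CPM against 25.8 and 31.8 CPM and 6.85 and 9.01 CPM against 36.8 and 79.5 CPM. Their log2 differences were -2.28 (SE 0.37, adjusted p = 0.00545) and -2.88 (SE 0.52, adjusted p = 0.00834). Psmd3, of the regulatory cap, went the other way (34.4 and 117 CPM against 12.2 and 12.9 CPM, log2 difference 2.60, SE 0.55, adjusted p = 0.0143). The cap gene Psmd1 was at 347 and 372 CPM with cycloheximide, 226 and 155 CPM with MG132 and 44.98 and 77.5 CPM with DMSO and did not pass between the drugs (adjusted p = 0.149). Summed over the list, levels were 6211 and 5794 CPM with cycloheximide, 4501 and 4800 with MG132 and 2088 and 2570 with DMSO, so the sum, unlike the count, was higher with cycloheximide. With CHX 1, CHX 2, MG132 1 or MG132 2 left out, 3 and 6, 2 and 10, 2 and 11, and 0 and 3 were higher and lower, and the call was lost for Psmb7 (adjusted p = 0.0698 without MG132 2) and Psmd3 (0.0930 without CHX 2, 0.0609 without MG132 1, 0.104 without MG132 2).

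Of 27 ubiquitin and conjugation genes, 3 were higher and 4 lower (median log2 difference -0.35). Among all genes 9.5% were called. Of the 7623 genes at 10 CPM or more, 882 were higher and 910 lower, a share near that of this list. Ubb, a polyubiquitin gene (chr11:62551171-62553213), was at 216 and 316 CPM with cycloheximide, 1157 and 1159.5 CPM with MG132 and 1442 and 1871 CPM with DMSO, a log2 difference of -2.12 (SE 0.30, adjusted p = 0.00335). Ube2a, a conjugating enzyme, was lower with cycloheximide (log2 difference -2.15), and the ligase subunits Cul1 and Rbx1 were higher (1.46 and 1.51). Leaving out CHX 1, CHX 2, MG132 1 or MG132 2 gave 3 and 5, 2 and 4, 2 and 4, and 0 and 1 members higher and lower, and the call was lost for Ube2a (adjusted p = 0.0738 without MG132 2), Cul1 (0.159 without MG132 2) and Rbx1 (0.127 without MG132 2).

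Genes of the translation machinery, which cycloheximide blocks, were split. Of 79 cytosolic ribosomal protein genes, 2 were higher and 11 lower with cycloheximide (median log2 difference -0.32), and the medians against DMSO were -1.28 with cycloheximide and -0.51 with MG132. Rpl27, a protein of the large subunit, was at 1.45 and 1.39 CPM with cycloheximide, 8.23 and 14.5 CPM with MG132 and 8.68 and 4.70 CPM with DMSO (log2 difference between the drugs -3.00, SE 0.61, adjusted p = 0.0122). Rpl13 was higher, with 103 and 149 CPM against 32.5 and 34.0 CPM and 18.5 and 13.1 CPM (log2 difference 1.92, SE 0.34, adjusted p = 0.00756). Ribosomal protein genes have many retrocopies, so these levels are uncertain. Of 45 translation factors, 3 were higher and 8 lower, among them the elongation factor Eef1a1 (71.9 and 36.9 CPM against 169.8 and 348 CPM, log2 difference -2.25, SE 0.44, adjusted p = 0.0106). Ribosome biogenesis genes were called equally often in both directions (6 and 6 of 67), for example Nip7 higher (log2 difference 2.07) and Nop10 lower (-2.08), and Dars was the single aminoacyl-tRNA synthetase of 22 that was lower. Without MG132 2, 0 members of these 4 lists were called in edgeR, with 16, 12, 17 and 3 at an unadjusted p under 0.05 in the order given, and the DESeq2 Wald test on all libraries called 2 and 15, 6 and 9, 11 and 8, and 1 and 1. Ribosomal protein genes were 5 higher and 3 lower without CHX 1, and translation factors 0 and 3 without CHX 2. Ribosome biogenesis genes were 4 and 3 without CHX 1. Calls that ended with 1 library left out were Rpl27 (adjusted p = 0.0937 without MG132 2), Rpl13 (0.0711 without MG132 2), Eef1a1 (0.0824 without MG132 2), Nip7 (0.0712 without MG132 2), Nop10 (0.0656 without MG132 2) and Dars (0.155 without CHX 2, 0.289 without MG132 2).

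Of 41 heat shock and chaperone genes, many of which respond to misfolded protein, 2 were higher and 1 lower with cycloheximide (median log2 difference -0.24). That share was near the 9.5% of all genes called and below the share among genes at 10 CPM or more. Hsp90ab1, a constitutive chaperone, was at 751 and 1027 CPM against 344 and 172 CPM with MG132 (log2 difference 1.79, SE 0.40, adjusted p = 0.0179). The inducible Hspa1a had 46 counts with cycloheximide and 1 with MG132, a ratio of 49.97 with a counting interval of 8.53 to 2016, and did not pass the test (adjusted p = 0.169). Its level was 1.83 and 0.126 CPM with cycloheximide, so most of its counts came from CHX replicate 1. The counting interval leaves out this variation between libraries and is too narrow. Dnajb1, Hspa8 and Sqstm1 did not pass (log2 differences -0.74, 0.82 and -0.92; adjusted p = 0.218, 0.200 and 0.306), and Hmox1 stood at 0.298 and 0.0842 CPM against 0 and 0.264 CPM. With the replicate number as a block 2 were higher and 2 lower. Without MG132 2 or CHX 2 the edgeR count was 0, with 8 genes at an unadjusted p under 0.05 without MG132 2, and the DESeq2 Wald test on all libraries called 4 and 2. It was 4 and 2 without CHX 1 and 1 and 1 without MG132 1. With 1 library left out, Hsp90ab1 (adjusted p = 0.0649 without CHX 2, 0.185 without MG132 2) lost the call.

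Of 30 genes of the integrated stress response, which follows phosphorylation of initiation factor eIF2, 3 were higher and 1 lower. Over all genes 9.5% were called, with a larger share among genes at 10 CPM or more. Slc3a2, a chain of amino acid transporters, was at 256 and 409 CPM with cycloheximide, 83.1 and 53.3 CPM with MG132 and 106 and 99.9 CPM with DMSO (log2 difference 2.29, SE 0.34, adjusted p = 0.00404). Shmt2 and Mthfd2, enzymes of mitochondrial folate metabolism, were also higher (log2 differences 2.14 and 1.08). Ddit3, the transcription factor CHOP, was lower (11.1 and 12.2 CPM against 28.8 and 42.0 CPM, log2 difference -1.60, SE 0.36, adjusted p = 0.0176). Atf4 and Atf3 did not pass (adjusted p = 0.639 and 0.913). Endoplasmic reticulum folding genes gave 3 and 3 of 25, and 4 and 2, 1 and 3, 1 and 3, and 1 and 0 with CHX 1, CHX 2, MG132 1 or MG132 2 left out. Ern1, the sensor IRE1, was at 504 and 701 CPM, 159 and 111 CPM and 29.8 and 32.5 CPM with cycloheximide, MG132 and DMSO (log2 difference 2.16, SE 0.30, adjusted p = 0.00316), and the secreted factor Manf was at 5.88 and 5.72 CPM against 23.3 and 66.7 CPM (log2 difference -2.96, SE 0.54, adjusted p = 0.00842). Without MG132 2 only Slc3a2 and Ern1 of these 2 lists were called, and the call was lost for Ddit3 (adjusted p = 0.0634 without CHX 1, 0.162 without MG132 2), Manf (0.0664 without MG132 2), Shmt2 (0.0698 without MG132 2) and Mthfd2 (0.0955 without CHX 2, 0.106 without MG132 1, 0.233 without MG132 2).

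Of 27 oxidative stress and ferritin genes, 2 were higher and 5 lower with cycloheximide. Prdx1, an abundant peroxiredoxin that removes hydrogen peroxide (chr4:116685544-116700822), was at 299 and 274 CPM with cycloheximide, 1318 and 1135 CPM with MG132 and 1192 and 1757 CPM with DMSO. MG132 overlapped the vehicle and cycloheximide was 4.28-fold below MG132 (log2 difference -2.10, SE 0.30, adjusted p = 0.00323). Fth1, the ferritin heavy chain, was at 65.1 and 81.3 CPM with cycloheximide, 178 and 198 CPM with MG132 and 448 and 582 CPM with DMSO (log2 difference between the drugs -1.36, SE 0.33, adjusted p = 0.0237). The Nrf2 target Nqo1 went the other way (80.3 and 73.2 CPM against 33.5 and 25.3 CPM, log2 difference 1.39, SE 0.31, adjusted p = 0.0186). Leaving out CHX 1, CHX 2, MG132 1 or MG132 2 gave 1 and 2, 1 and 2, 1 and 3, and 0 and 1 members higher and lower, Prdx1 among them each time. G6pdx, the pentose phosphate enzyme gene, was also lower (log2 difference -1.01, adjusted p = 0.0422). Calls that ended with 1 library left out were Fth1 (adjusted p = 0.100 without CHX 1, 0.0523 without MG132 1, 0.136 without MG132 2), Nqo1 (0.0542 without CHX 1, 0.0556 without MG132 1, 0.230 without MG132 2) and G6pdx (0.135 without CHX 1, 0.0993 without CHX 2, 0.0749 without MG132 1, 0.311 without MG132 2).

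Promoters of the stress and proteasome lists were searched for the elements named after their regulators, in RefSeq promoters of GRCm38.p6 from 250 bases before to 50 after each gene's start. The antioxidant element, TGACNNNGC on either strand, was in 9 of 23 promoters of the oxidative stress list (39.1%) and 7 of 39 of the proteasome list (17.9%), and in 14% of the promoters of 27025 genes. On the strand of the gene alone it was in 3 of 23 and 4 of 39, and in 7.29% of all. The 2 called members of the oxidative stress list that hold it, Prdx1 and G6pdx, are shown to let the element be read in place, in capitals, 5′ to 3′ on the strand of the gene, which in both holds it as its reverse complement:
Prdx1 (chr4:116685450-116685490, plus strand): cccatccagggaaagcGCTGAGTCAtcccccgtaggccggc
G6pdx (chrX:74428913-74428953, minus strand): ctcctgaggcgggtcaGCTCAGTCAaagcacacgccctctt
Both were lower with cycloheximide, though G6pdx lost its call with any 1 library left out. In the proteasome list the 1 called holder, Psmb6, was higher with cycloheximide (log2 difference 1.89, adjusted p = 0.00675, and 0.0779 without MG132 2). The heat shock element was in 5 of 36 promoters of the heat shock list and 0.662% of all, with none of these 5 genes called. The cyclic AMP response element, TGACGTCA, was in 3 of 37 promoters of immediate-early genes and 2.03% of all. The ATF4 element, TGATGNAA, was in 10 of 29 promoters of the integrated stress response and 4.51% of all, again with none of the holders called. A match is a description of these letters and not a bound site.

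Immediate-early genes, which cycloheximide superinduces in many cultured cells, gave 1 higher and 1 lower of 45. Nfkbia, the NF-kB inhibitor, was at 198 and 377 CPM with cycloheximide, 107 and 94.5 CPM with MG132 and 26.0 and 14.2 CPM with DMSO (log2 difference 1.51, SE 0.38, adjusted p = 0.0284). Fos, Jun, Egr1 and Ier2 did not pass, with adjusted p of 0.113, 0.338, 0.135 and 0.232. Egr1 was at 12.9 and 18.3 CPM with cycloheximide against 7.88 and 8.01 CPM, and Myc had no count with MG132 and 0.426 and 0 CPM with cycloheximide. Of 29 p53 targets 3 were higher and 0 lower. That share was near the 9.5% of all genes called, and the immediate-early share was below it. Both were below the share among genes at 10 CPM or more. Mdm2, the ubiquitin ligase of p53, was at 174 and 241 CPM against 86.2 and 71.2 CPM (log2 difference 1.40, SE 0.33, adjusted p = 0.0216), and Cdkn1a did not pass (adjusted p = 0.232). Without MG132 2, 0 of either list were called in edgeR (3 immediate-early genes and 5 p53 targets at an unadjusted p under 0.05), and without MG132 1, 0 immediate-early genes were. The call was lost for Nfkbia (adjusted p = 0.175 without CHX 2, 0.0905 without MG132 1, 0.212 without MG132 2) and Mdm2 (0.0980 without CHX 2, 0.0697 without MG132 1, 0.212 without MG132 2), while Fos passed without CHX 2 (adjusted p = 0.0237). The block gave 1 and 2 immediate-early genes and 4 and 1 p53 targets, and the DESeq2 Wald test 4 and 2, and 3 and 2, Fos, Egr1 and Myc among them.

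Genes for handling RNA differed in both directions. Upf1, the helicase of nonsense-mediated decay, a pathway that needs translation (chr8:70331525-70353278), was at 941 and 1009 CPM with cycloheximide, 199 and 103 CPM with MG132 and 47.9 and 38.8 CPM with DMSO. All 3 groups were apart, and the drugs differed 6.45-fold (log2 difference 2.69, SE 0.43, adjusted p = 0.00487). The exon junction gene Magohb was lower (15.9 and 7.24 CPM against 54.5 and 54.0 CPM, log2 difference -2.23, SE 0.40, adjusted p = 0.00756), as were 6 of 35 SR and hnRNP splicing regulators, whose transcripts often carry exons that expose them to nonsense-mediated decay. Srsf7 was at 13.2 and 12.0 CPM, 42.5 and 50.2 CPM and 119 and 91.6 CPM with cycloheximide, MG132 and DMSO (log2 difference -1.88, SE 0.31, adjusted p = 0.00565), and Hnrnpa1 and Hnrnpu had log2 differences of -1.92 and -1.93. Srsf4 was the 1 member that was higher (log2 difference 2.02). Counts per gene do not separate the isoforms. Of 19 decay factors of this pathway 2 were higher and 1 lower, and of 38 genes of deadenylation and decay 7 were higher and 4 lower, with Lsm1, a factor of decapping, at 19.8 and 23.0 CPM against 117 and 84.9 CPM (log2 difference -2.24, SE 0.32, adjusted p = 0.00327). Host genes of small nucleolar RNAs gave 2 and 1 of 22, and 1 and 2, 0 and 0, 0 and 1, and 0 and 0 with CHX 1, CHX 2, MG132 1 or MG132 2 left out in edgeR (9, 8, 6 and 4 at an unadjusted p under 0.05; the DESeq2 Wald test on all libraries called 3 and 2). Gas5 and Snhg1 did not pass (adjusted p = 0.0579 and 0.289); Gas5 passed with the replicate block (adjusted p = 0.0284) and without MG132 1 (0.0386). Upf1, Magohb, Srsf7, Hnrnpa1, Hnrnpu and Lsm1 kept their call when any single library was left out, and the call was lost for Srsf4 (adjusted p = 0.100 without MG132 2). The splicing list had 0 higher and 3 lower without MG132 2. The list of deadenylation and decay had 5 and 4, 3 and 3, 3 and 3, and 0 and 1 with CHX 1, CHX 2, MG132 1 or MG132 2 left out. With the block, the splicing list had 3 and 7 and the nonsense-mediated decay list 3 and 2.

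Of 57 genes of mitosis, 7 were higher and 3 lower with cycloheximide (median log2 difference 0.43). Cdc20, the activator of the anaphase-promoting complex, was at 226 and 396 CPM with cycloheximide, 61.9 and 42.2 CPM with MG132 and 54.0 and 40.8 CPM with DMSO (log2 difference 2.58, SE 0.39, adjusted p = 0.00417). Cenpe, a kinetochore motor, was higher (log2 difference 2.08, SE 0.44, adjusted p = 0.0136), and the kinetochore gene Spc24 was lower (-2.55). Of 54 replication genes, 9 were higher and 6 lower, where 9.5% of all genes were called and a larger share of genes at 10 CPM or more. Mcm2, of the replicative helicase, was at 282 and 168 CPM against 69.0 and 31.2 CPM (log2 difference 2.17, SE 0.44, adjusted p = 0.0123), while Rpa3, of the single-strand binding complex, was at 26.1 and 23.2 CPM against 136 and 123 CPM (log2 difference -2.39, SE 0.29, adjusted p = 0.00249). Without MG132 2 mitosis genes were 1 and 0 and replication genes 0 and 3, and without MG132 1 replication genes were 4 and 6. With 1 library left out, Cenpe (adjusted p = 0.123 without MG132 2), Spc24 (0.0822 without MG132 2) and Mcm2 (0.119 without MG132 2) lost the call.

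Replication-dependent core histone genes, a group chosen after their values were seen, summed to 152 and 232 CPM with cycloheximide, 283 and 821 with MG132 and 84.2 and 135 with DMSO. How fully Smart-seq2 libraries capture these RNAs was not tested, so the values may not be their levels. The same limit holds for Rn7s1, Rn7s2 and Vaultrc5, named above. Of 42 tested, 9 were lower and 2 higher with cycloheximide, and 35 had a negative log2 difference (median -1.95). Hist1h2bk was at 4.09 and 4.33 CPM with cycloheximide, 38.9 and 57.4 CPM with MG132 and 4.58 and 7.56 CPM with DMSO (log2 difference -3.51, SE 0.44, adjusted p = 0.00249). The near-identical pair Hist2h2aa1 and Hist2h2aa2 had log2 differences of -4.40 (SE 0.79, adjusted p = 0.00795) and -4.13 (SE 0.73, adjusted p = 0.00756), and reads of the pair cannot be told apart with certainty. Calls that ended with 1 library left out were Hist2h2aa1 (adjusted p = 0.0871 without MG132 2) and Hist2h2aa2 (0.0617 without MG132 2).

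The remaining lists are given by their counts, to be read beside the 9.5% of all genes called and the larger share among genes at 10 CPM or more. Glycolysis had 0 higher and 4 lower of 20 (Aldoa, Gpi1, Tpi1 and Pkm, log2 differences from -2.74 to -1.64), and cholesterol synthesis 0 and 2 of 23 (Fdft1 and Nsdhl, -2.00 and -1.90). Autophagy genes gave 2 and 4 of 25, and 5 and 3, 0 and 2, 0 and 4, and 0 and 1 with CHX 1, CHX 2, MG132 1 or MG132 2 left out, with Gabarapl2 at 10.2 and 13.3 CPM against 39.8 and 37.8 CPM (log2 difference -1.73, SE 0.29, adjusted p = 0.00649). Pluripotency and morula genes gave 2 and 0 of 29, where Pou5f1 was at 48.4 and 139 CPM against 24.7 and 26.9 CPM (log2 difference 1.86, SE 0.44, adjusted p = 0.0229). The other gene of this list called was Gata3, a regulator of the trophectoderm. Interferon-stimulated genes gave 2 and 0 of 28, Ifitm3 among the higher, and chromatin silencing genes 3 and 1 of 37, with the demethylase gene Kdm6b at 508 and 605 CPM against 164 and 129.7 CPM (log2 difference 1.92, SE 0.28, adjusted p = 0.00365). With the block, the pluripotency and morula list gave 2 and 1 and chromatin silencing 4 and 2. Without MG132 2, glycolysis, cholesterol synthesis, pluripotency, interferon and chromatin silencing had 0 called in edgeR (7, 4, 4, 4 and 5 at an unadjusted p under 0.05). The pluripotency and morula list and interferon genes also had 0 called without CHX 2 or MG132 1. The DESeq2 Wald test on all libraries called 1 and 4, 0 and 3, 2 and 0, 4 and 0, and 4 and 2 in these 5 lists. With 1 library left out, Aldoa (adjusted p = 0.0930 without MG132 2), Gpi1 (0.0673 without CHX 2, 0.117 without MG132 2), Tpi1 (0.112 without MG132 2), Pkm (0.0586 without MG132 2), Fdft1 (0.0916 without MG132 2), Nsdhl (0.0691 without MG132 2), Pou5f1 (0.203 without CHX 2, 0.106 without MG132 1, 0.146 without MG132 2), Kdm6b (0.0511 without MG132 2), Gata3 (0.0863 without CHX 1, 0.107 without CHX 2, 0.0905 without MG132 1, 0.375 without MG132 2) and Ifitm3 (0.148 without CHX 2, 0.0867 without MG132 1, 0.151 without MG132 2) lost the call.

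**Figure D3:**
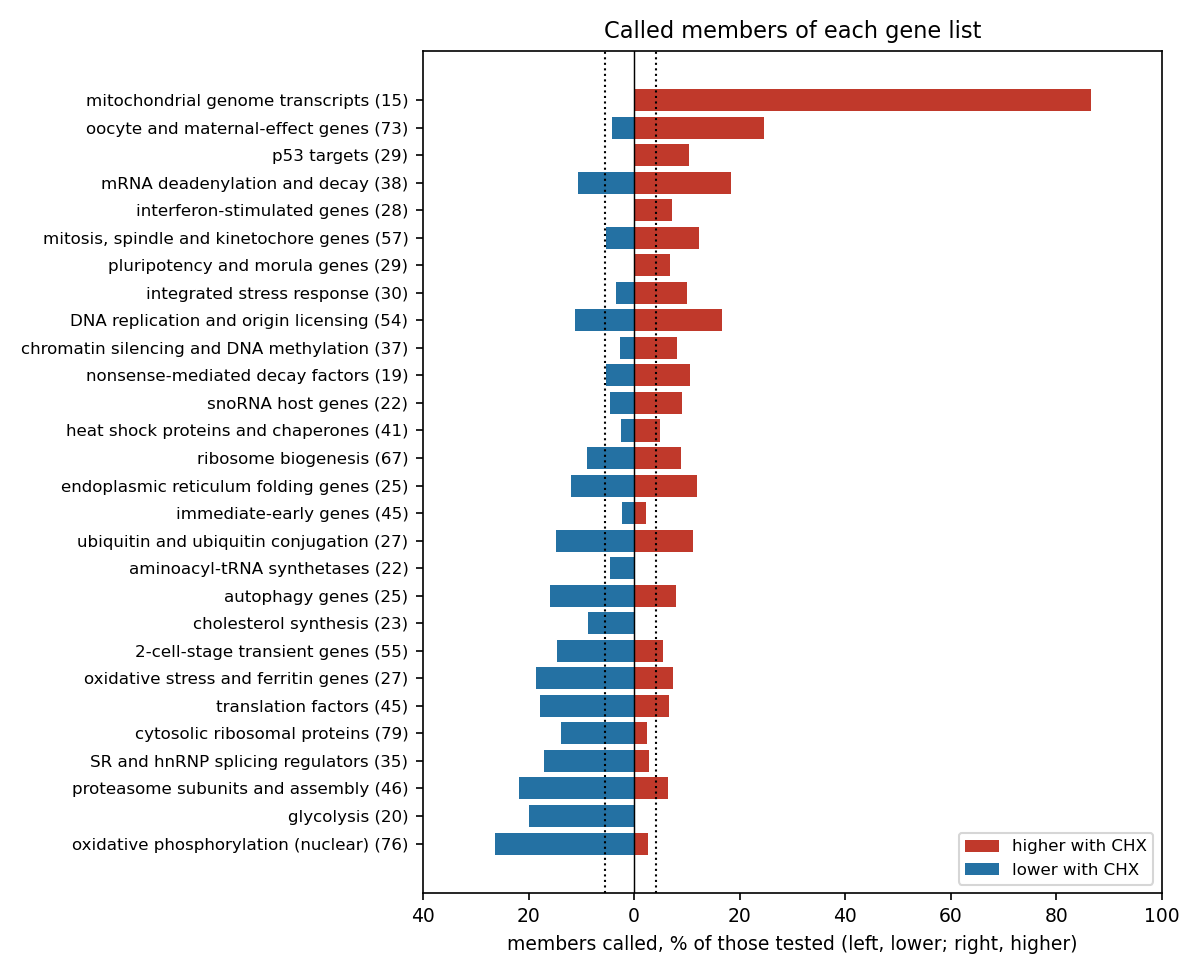
For each gene list (number of genes tested in parentheses), bars to the right give the percent of members called higher with CHX than with MG132 and bars to the left the percent called lower; dotted lines mark the shares over all genes, 4.09% and 5.41%. Mitochondrial genome transcripts (13 of 15 higher) and oxidative phosphorylation (20 of 76 lower) stand at the ends of the order. The shares called were larger among genes at 10 CPM or more than over all genes.

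Gene lengths are given as a description, with no test. Among the 7623 genes that reached 10 CPM in the higher of the drug groups, the median exonic length in the annotation was 2886 bases for genes lower with cycloheximide, 4392 bases for genes higher and 4792 bases for genes not called. Split into 5 groups of like size, the shortest (57 to 2170 bases) had 13.8% higher and 21.3% lower. The longest (8115 bases or more) had 11.9% higher and 3.67% lower. The median log2 difference went from -0.23 in the shortest group to 0.48 in the longest. In the same groups of genes it was 0.08 and -0.15 at 4 cells and -0.04 and -0.11 in stem cells. The median log2 difference gave no steady trend with exon number, while the share called lower fell at each step from 2 exons (20.6%) to 16 or more (2.59%). Of genes with 1 exon, 23.6% were higher and 17.7% lower (median log2 difference 0.64). Genes with 5 to 8 exons had 10.2% higher and 17.8% lower, and genes with 16 or more 12.7% and 2.59%. Median GC content was 47.7% for genes lower, 49.0% for genes higher and 46.9% for genes not called. The oxidative phosphorylation list and the ribosomal protein list hold short genes (median exonic length 1737 and 1770 bases). The part of length in the differences of these lists was not tested.

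**Figure D4:**
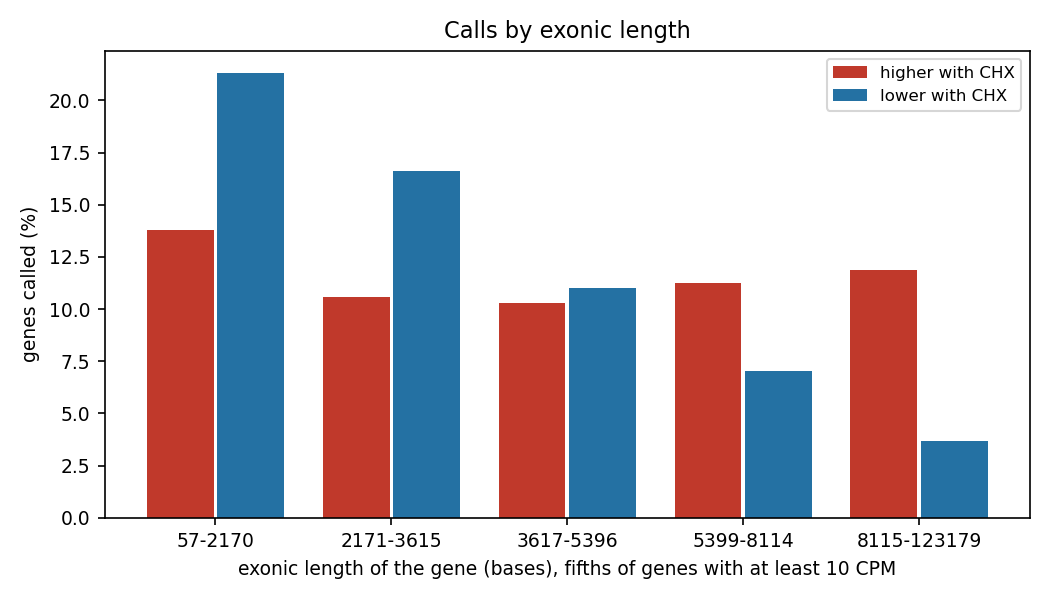
Percent of genes called higher (red) and lower (blue) with CHX than with MG132 in 5 groups of exonic length in bases, among the 7623 genes reaching 10 CPM under either drug. The share called lower goes from 21.3% in the shortest group to 3.67% in the longest, and the share called higher stays between 10.3% and 13.8%.

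Few repeat subfamilies were called between the drugs. Of 1016 tested, 4 were higher and 7 lower with cycloheximide, 1.08% in all (0.394% and 0.689%), although 531 (52.3%) were called with cycloheximide and 387 (38.1%) with MG132 against the same DMSO libraries. The 4 higher were the short interspersed element B1_Mm, the retroviral elements BGLII_C and RLTR13D3 and the DNA transposon MER91A. B1_Mm was at 1017 and 1708 CPM with cycloheximide, 213 and 489 CPM with MG132 and 784 and 932 CPM with DMSO (log2 difference 1.96, SE 0.40, adjusted p = 0.0380). The 7 lower were Helitron3Na_Mam, Tigger2b, LTR84b, MER131, RLTR22_Mus, L1MEj and MTB_Mm-int. Helitron3Na_Mam was at 1.92 and 1.81 CPM with cycloheximide, 39.0 and 87.6 CPM with MG132 and 31.4 and 69.8 CPM with DMSO (log2 difference -5.08, SE 0.52, adjusted p = 0.000584), and was called in every alternative, the fit of 4 libraries included. RLTR22_Mus and Tigger2b had log2 differences of -2.40 (SE 0.32, adjusted p = 0.00436) and -3.70 (SE 0.52, adjusted p = 0.00436). Both lost their call only in the fit of 4 libraries. The other called subfamilies, B1_Mm among them, also lost theirs in the fit of the 8 libraries of 6-8-week females. They lost it without CHX 2 or MG132 1 as well, and all of these but B1_Mm without MG132 2.

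MERVL-int, the retrovirus of the 2-cell stage, was at 30.2 and 34.1 CPM with cycloheximide, 32.4 and 93.8 CPM with MG132 and 22121 and 13547 CPM with DMSO. Its promoter repeat MT2_Mm was at 194 and 258 CPM with cycloheximide, 176 and 206 CPM with MG132 and 9578 and 8999 CPM with DMSO. Neither passed between the drugs (adjusted p = 0.301 and 0.799), nor did L1Md_T, IAPEz-int or B2_Mm1a (adjusted p = 0.0831, 0.709 and 0.319). B2_Mm1a stood at 9270.2 and 44129 CPM in the cycloheximide libraries, a wide gap within the group. Reads of a repeat inside a gene cannot be told from those of the element's own transcripts. Repeat counts were 1 and 3 without MG132 2, 0 and 4 without MG132 1, 2 and 4 without CHX 2, and 16 and 18 without CHX 1. With the replicate block they were 10 and 12, and with the DESeq2 Wald test 48 and 61.

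The difference between the drugs was also set beside that in 4-cell embryos of the same kind and in the embryonic stem cell line AB2.2, each with 2 libraries per drug. In 4-cell embryos 1016 genes were higher and 1257 lower with cycloheximide (10.1% of 22520, or 4.51% and 5.58%), and in stem cells 1641 and 1626 (17.5% of 18696, or 8.78% and 8.7%). The drug difference itself was higher at 2 cells than at 4 cells for 771 genes and lower for 1297 (7.6% of 27201, or 2.83% and 4.77%), around a median of -0.57 over all genes. With DESeq2 size factors this median was -0.35, so values are read against it. Between 2-cell embryos and stem cells, 551 genes had a higher and 752 a lower difference (5.29% of 24640, or 2.24% and 3.05%, median -0.11). Embryo libraries were made by Smart-seq2 and stem cell libraries with a TruSeq kit, so kit and system cannot be told apart in the second comparison. That fit also took a shared spread per gene for both systems, which did not vary alike. Replicates correlated at 0.951 (cycloheximide) and 0.969 (MG132) in 2-cell embryos and at 0.999 and 0.992 in stem cells (log2 CPM). Its p-values are therefore approximate.

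Of the mitochondrial transcripts, 0 of 15 were called at 4 cells (edgeR, median log2 difference 0.18, lowest adjusted p = 0.333 for mt-Nd4l), and 12 were lower with cycloheximide in stem cells (median -1.24). The difference between systems was called for 4 of 15 against 4-cell embryos (median 1.75) and 13 against stem cells (median 3.21). Their share of gene counts was 23.15% and 21.7% with cycloheximide and 17.2% and 15.45% with MG132 at 4 cells, and 1.01% and 1.05% with cycloheximide against 1.73% and 3.21% with MG132 in stem cells. Nuclear oxidative phosphorylation genes were 20 higher and 5 lower at 4 cells (median 0.48) and 5 and 0 in stem cells (median 0.14). Their difference between systems was lower at 2 cells for 27 and higher for 1 of 76 against 4-cell embryos (median -1.91), and lower for 16 and higher for 1 against stem cells (median -1.13).

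Cyb5a, a cytochrome b5 of fatty acid desaturation, showed opposite drug differences in the embryos, with 22.6 and 22.6 CPM (cycloheximide) and 140.1 and 341 CPM (MG132) at 2 cells against 488 and 543 CPM and 18.3 and 8.12 CPM at 4 cells. Its difference between stages was -8.81 (SE 0.78, adjusted p = 3.74e-05) on the log2 scale. Crabp2 had the same opposition, with 71.2 and 32.9 CPM and 1.78 and 2.67 CPM at 4 cells, a difference between stages of -8.52 (SE 0.98, adjusted p = 0.000230) and between 2-cell embryos and stem cells of -5.09 (SE 0.66, adjusted p = 0.00678). Ubtfl1 had it the other way round, with 10.3 and 7.95 CPM and 84.5 and 141 CPM at 4 cells (difference 11.94, SE 0.91, adjusted p = 6.10e-06), as had Tor2a with 5.07 and 11.1 CPM and 19.5 and 46.2 CPM (difference 5.48, SE 0.80, adjusted p = 0.000940). The counts of genes between systems rest on single libraries too. Against 4 cells they ran from 820 genes without 2-cell MG132 replicate 2 to 1481 without 2-cell MG132 replicate 1, with 1095 without 4-cell CHX replicate 1, 1210 without 4-cell MG132 replicate 2, 1329 without 2-cell CHX replicate 1 and 1342 without 4-cell CHX replicate 2. Against stem cells they ran from 81 without stem cell CHX replicate 1 to 1970 without 2-cell CHX replicate 2, with 93 without either stem cell CHX replicate 2 or stem cell MG132 replicate 2, 282 without 2-cell MG132 replicate 2 and 451 without stem cell MG132 replicate 1. Within stem cells alone, leaving out either CHX library left 0 genes called in edgeR (3662 and 3772 at an unadjusted p under 0.05), and leaving out an MG132 library gave 10315 and 7242. Within 4-cell embryos the counts were 1004 and 1451 without CHX replicate 1 or 2, and 1834 and 1237 without MG132 replicate 1 or 2.

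**Figure D5:**
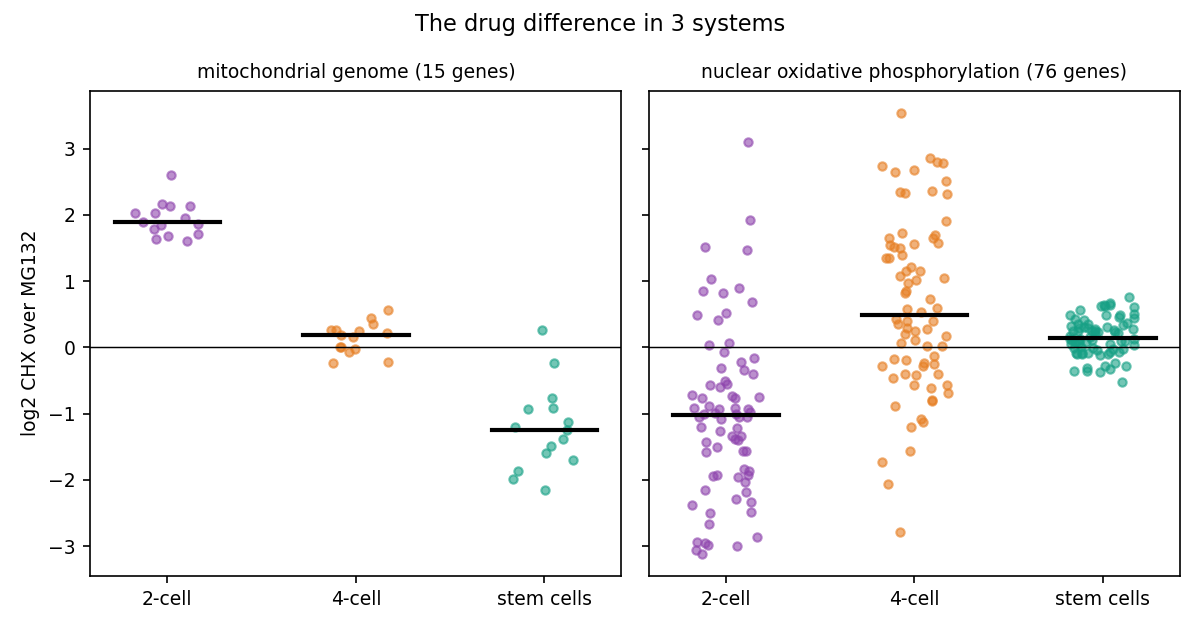
Log2 ratios of CHX over MG132 for the 15 mitochondrial genome transcripts and the 76 nuclear oxidative phosphorylation genes in 2-cell embryos, 4-cell embryos and stem cells; points are genes and black lines medians (1.89, 0.18 and -1.24, and -1.03, 0.48 and 0.14). The medians of the 2 sets lie on opposite sides of 0 at 2 cells and, with the signs exchanged, in stem cells.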

How the data were processed

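Raw counts per gene and repeat subfamily were deposited by the authors, who trimmed with cutadapt 1.16 and aligned to mm10 with STAR, per the submitters' processing notes. The counter, annotation, strand and multimapper handling are not stated in the labels or file headers. Genes were placed with GENCODE release M21. Of 55335 gene rows, 55154 IDs matched without version. Counts of all 10 2-cell libraries were fitted in edgeR 4.0.16 (R 4.3.3, quasi-likelihood F-test, TMM over genes and repeats, filterByExpr with a minimum of 10 counts and a total of 15), and p-values were adjusted by Benjamini-Hochberg separately over genes and repeats, with calls at 0.05. There is no spike-in, so levels are relative, and CPM is not per length. Named genes were the 12 largest called changes of each sign at 10 CPM or more with libraries apart, up to 5 called genes per list, fixed index genes, and 5 per sign of each difference between systems. The members and lists were chosen with earlier results of these data known. Deviations of same-numbered libraries correlated weakly, at 0.138 to 0.337, in all 6 pairs of the 2-cell drug and vehicle groups (17190 genes). Any pairing is read off the data, as the labels tie no replicate number to a day. The highest value joined MG132 and aphidicolin, the groups with a shallow replicate 1, and the part of depth was not tested. The main fit took no account of a pairing, and the replicate block was an alternative. Alternatives included DESeq2 1.42.0 and, chosen after seeing the data, thinning libraries to equal depth.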

Additional observations from a re-analysis of the deposited data

Results flagged for a closer look

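The difference between cycloheximide and MG132 was called as different between 2-cell and 4-cell embryos for 2068 genes, and between 2-cell embryos and stem cells for 1303 genes. Each call came from a test of the difference itself. The test against stem cells took a shared spread per gene for both systems, though replicates agreed less in embryos, so its count is approximate. The genes below are those with the largest such differences of each sign under the rule for named genes, given as log2 differences, 2-cell embryos minus the other system. Against 4-cell embryos they were lower for Prss44 (-11.04), Lbp (-9.92), Mroh3 (-9.36), Dpys (-8.83) and Cyb5a (-8.81), and higher for Ubtfl1 (11.94), Npl (9.34), Ly6a (7.22), Gfra4 (6.31) and Tor2a (5.48). Against stem cells they were lower for Oog1 (-6.59), Hist1h2bk (-6.12), Hist2h2aa1 (-5.63), Crabp2 (-5.09) and Tmem147 (-4.97), and higher for mt-Th (7.74), Npl (7.39), Ubtfl1 (7.12), Cd5 (5.93) and mt-Tq (4.77). Prss44 and Lbp had no count in either 4-cell MG132 library, and Ly6a and Gfra4 none in either 4-cell CHX library, so their fitted sizes depend on the prior count and are no measure of size. The sizes given for Ubtfl1 and Npl rest likewise on 2 and 8 counts in the 2-cell MG132 group, that of Dpys on a 4-cell MG132 level of 0.0308 and 0 CPM, and those of mt-Th and mt-Tq against stem cells on levels of 0.0477 and 0.131 CPM in the stem cell CHX libraries.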

How the results depend on the processing

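Of 164 called genes and repeats that the naming rules selected, of which the text gives a part, all kept their direction in every alternative that tested them, 44 were called in every alternative except the fit of the 4 libraries compared, and 118 lost their call without MG132 replicate 2. The kept direction says little, because the CHX and MG132 libraries of every called gene did not overlap. Leaving out 1 library could therefore hardly reverse a sign. Genes higher and lower with cycloheximide than with MG132 numbered 916 and 1212. They were 0 and 0 in the fit of 4 libraries (edgeR, 4267 at an unadjusted p under 0.05), 607 and 889 in the 8 libraries of 6-8-week females, 1724 and 1834 with the DESeq2 Wald test, and 68 to 879 and 287 to 1016 with 1 library left out. Repeats, 4 and 7, were 0 and 1 in the 4 libraries, 0 and 3 in the 8, 48 and 61 with the Wald test, 9 and 15 at 5 CPM or more, 22 and 43 with no filter, 5 and 11 when thinned, and 0 to 16 and 3 to 18 with 1 library left out. With the replicate block, genes were 1206 and 1472 and repeats 10 and 12. Among genes these rules selected, the block ended the call of Odf1, Col1a1 and Btg4, gave one to Gadd45a, Gas5 and Mroh3, and changed no other. Calls of MG132 against DMSO, 2188, were 3561 with the Wald test and 969 to 2885 with 1 library left out. With 1 library left out, differences between systems were 820 to 1481 genes against 4-cell embryos and 81 to 1970 against stem cells, and calls between the drugs 1004 to 1834 at 4 cells and 0 to 10315 in stem cells (3662 and 3772 at an unadjusted p under 0.05 where 0). A group left with 1 library was taken to vary like the others. Eif1a reversed, from 0.49 to -7.29 without CHX replicate 1 (1.45 without CHX replicate 2) and had no call with all libraries. The cause was not tested for any of these. Depth was lowest in aphidicolin replicate 1 (14313718 counts) and next in MG132 replicate 1, and thinning all libraries to the smallest total left 949 and 1283 genes.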
